A study of Mus musculus with 21 samples.

Results

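Cytosolic ribosomal protein genes encode the proteins that, with the ribosomal RNAs, build the large and the small subunit of the ribosome in the cytoplasm. They were taken from the RNA sequencing tables of mouse acute myeloid leukaemia (AML) cell lines as all symbols made of Rpl or Rps and a number with at most 2 further characters (a, x, l, p or a digit), plus Rplp0, Rplp1, Rplp2, Rpsa and Fau. Symbols with -ps, which marks pseudogenes, and the Rps6k kinases were left out. The rule found 87 of the 16782 genes present in any of the 3 tables. Of these, 87 were in the inhibitor table, 87 in the knockdown table and 86 in the overexpression table, where Rps12l1 is not listed. By their roles, 43 are proteins of the large subunit, 3 are proteins of its stalk (Rplp0, Rplp1, Rplp2), 32 are proteins of the small subunit and 5 are paralogous forms (Rpl3l, Rpl7l1, Rpl22l1, Rpl36al, Rps27l). The remaining 4 (Rpl6l, Rps12l1, Rps3a2, Rps3a3) are annotated as processed pseudogenes although their symbols do not say so. The 83 protein-coding members have coding lengths of 78 to 1260 bases, and the members lie on 20 chromosomes.

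The 21 libraries came from established murine lines grown in medium with serum and stem cell factor and transformed either by flag-tagged NUP98-NSD1 or by MLL-AF9, fusion oncoproteins of human leukaemia. In the inhibitor experiment NUP98-NSD1 cells received 3 µM UNC1999 or 3 µM JQEZ5, both inhibitors of the enzyme activity of the Polycomb complex PRC2, or the solvent DMSO, for 4 days, with 3 libraries each. In the knockdown experiment NUP98-NSD1 cells carried a pLKO.1-puro lentivirus with an shRNA against the histone demethylase gene Kdm5b (shKdm5b) or with no insert (shEV), and were selected with puromycin, with 3 libraries each. In the overexpression experiment MLL-AF9 cells carried an MSCV-neo retrovirus with wild-type Kdm5b (WT), with its demethylase-dead mutant H499A, or with no insert (EV), with 2 libraries each. The labels do not say whether replicates are separate cultures, so p-values measure the spread between these libraries, which may be technical. The labels name 1 shRNA construct, and 1 line stands for each oncogene.

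Ribosomal proteins are needed in nearly equal numbers, and cells keep the expression of their genes in step. Many of their transcripts begin with a cytosine followed by a run of pyrimidines, the 5′ terminal oligopyrimidine (TOP) motif, through which mTOR signalling controls their translation. MYC raises ribosome production in many blood cancers, and free Rpl5 and Rpl11 are known to bind the p53 inhibitor Mdm2. The mouse genome also holds many processed pseudogenes of these genes, which share their sequence.

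RefSeq start sites (GRCm38.p6) matched 63 of the 87 members by symbol or gene ID and gave 75 starts. Runs of at least 7 bases of C or T on the transcript strand were sought that begin with C and reach within 10 bases of the start. Some of them begin further upstream, such as that of Rps25 at -22. Such a run was found at 34 of these 75 starts (45.3%), against 16.2% of 12918 starts of other genes in the tables and 15.7% of 32776 starts of all other genes. The letters CCGGAAG, the core bound by ETS factors such as Gabpa, were found on either strand, from 250 bases before to 50 after the start, at 34.7% of member starts and 16.7% of the starts of other genes in the tables. The E-box CACGTG, which MYC can bind, stood in the same window at 10.7% of member starts and 9.71% of those other starts. Windows from 12 bases before to 18 bases after the start are shown for members whose values are given below, with the pyrimidine run in capitals, and for Rplp0, whose window holds no such run.
Rps6 chr4:86857350-86857379, minus strand: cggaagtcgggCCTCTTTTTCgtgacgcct
Fau chr19:6057935-6057964, plus strand: gcgcccccaCTTCTTCCTCTTTCTTgactc
Rps27 chr3:90213631-90213660, minus strand: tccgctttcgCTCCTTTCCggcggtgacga
Rplp2 chr7:141447639-141447668, plus strand: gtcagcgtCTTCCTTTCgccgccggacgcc
Rpl27a chr7:109519183-109519212, plus strand: ttcgtgagCTCCTCCCTTTTCCCTTTCTgc
Rpl22l1 chr3:28805496-28805525, plus strand: cggcgcaagcccgttCTCTTCCCacggctg
Rplp0 chr5:115559455-115559484, plus strand: ttcgggtttcgaggaccgcctggttctcct

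Reads of a ribosomal protein gene cannot always be told from those of its processed copies. An alignment of transcripts found 462 genes outside the list, 445 of them annotated pseudogenes, that match the coding sequence of a member at 90% identity or more over at least 60% of its length. Rpl5, which binds the smallest RNA of the large subunit, and its copy Gm15500 have the same 894 coding bases, and the first 60 of them are shown (GRCm38).
Rpl5 (gene at chr5:107900502-107909005, plus strand): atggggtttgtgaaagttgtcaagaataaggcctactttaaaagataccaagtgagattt
Gm15500 (chr7:114705217-114706235, minus strand): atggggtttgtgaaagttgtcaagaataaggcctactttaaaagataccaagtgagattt
Rplp0, the base of the stalk, and its copy Gm8730 differ at 12 of 954 coding bases, of which 3, in capitals, fall between coding bases 388 and 447.
Rplp0 (gene at chr5:115559467-115563727, plus strand): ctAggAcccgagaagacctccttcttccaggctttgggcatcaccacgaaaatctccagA
Gm8730 (chr8:102864845-102865798, minus strand): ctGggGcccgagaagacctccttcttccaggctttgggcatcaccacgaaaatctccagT

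How reads were divided between gene and copy differed between the tables of the cell lines. Over the 83 protein-coding members, the median share of the counts of gene plus copies that stood on the gene itself was 53.3% in the inhibitor table, 53.2% in the knockdown table and 94.6% in the overexpression table. The gene held under 50% for 41 members in the inhibitor table, 40 in the knockdown table and 3 in the overexpression table (Rpl26, Rpl29 and Rpl35a). Rpl5 held 1.12% to 1.52% of its family's counts over the 9 inhibitor libraries, 3.07% to 4.01% over the 6 knockdown libraries and 61.9% to 62.9% over the 6 overexpression libraries. Fau, which encodes a small-subunit protein fused to a ubiquitin-like one, held 6.81% to 8.12%, 6.19% to 8.16% and 97.6% to 98.0% in the same tables. For Rplp0 the ranges lay closer together, at 54.9% to 56.3%, 52.7% to 53.7% and 61.8% to 62.2%. Rps12, a small-subunit protein gene, had wider ranges in the NUP98-NSD1 tables than these 3 genes, at 18.1% to 34.7% in the inhibitor table and 6.67% to 18.8% in the knockdown table. In the overexpression table it held 93.0% to 93.8%, a narrower range than that of Rpl5. Where copies exist, a level is the part of the family's reads that was credited to the gene. The shares in this paragraph count pseudogene members of the list as copies of their gene. The fits counted with copies, given below, add only the copies outside the list. The tables were normalised separately and the labels name 2 library kits without saying which library used which, so levels were not compared between tables.

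**Figure D1:**
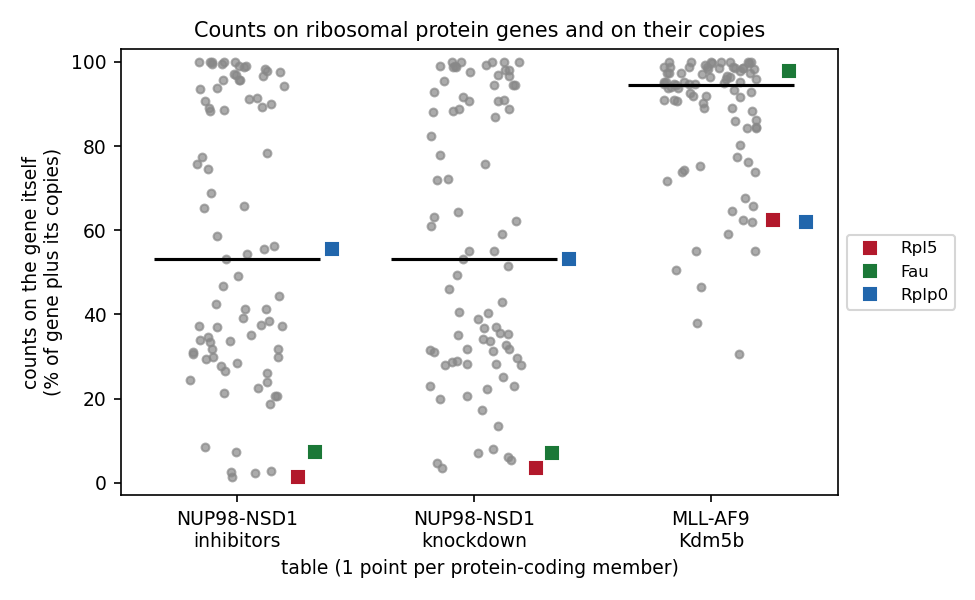
Share of the counts of each protein-coding ribosomal protein gene and its near-identical copies that stood on the gene itself (vertical axis, %), with 1 grey point per gene in each of the 3 tables, black lines at the medians (53.3%, 53.2% and 94.6%) and coloured squares for Rpl5, Fau and Rplp0. Rpl5 and Fau lie near the floor in both NUP98-NSD1 tables and above the middle of the axis in the MLL-AF9 table.

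Library depth ran from 12812646 to 18928764 counts in the inhibitor table, 21273211 to 34813867 in the knockdown table and 17341257 to 19973218 in the overexpression table. Kdm5b, the targeted gene, stood at 28.7 ± 5.44 normalised counts in shKdm5b cells and 74.5 ± 17.8 in shEV cells (SD, n = 3 each). It is below the filter on low values there, and without the filter it fell by 0.34 on the log2 scale (limma adjusted p = 0.00401). In MLL-AF9 cells Kdm5b stood at 1413 ± 4.48 with WT, 294 ± 21.5 with H499A and 121 ± 9.89 with EV (SD, n = 2 each). All 10 markers of myeloid leukaemia cells and progenitors were listed in every table, none of 6 lymphoid markers was, and the 1 or 2 of 7 erythroid markers that were listed summed to 6.13 to 25.5 normalised counts per library. Of 5 stromal or endothelial markers 1 or 2 were listed, summing to 839 to 5764 normalised counts per library, most of it Pecam1. The mean of Pecam1 was 848 with UNC1999, 995 with JQEZ5 and 1288 with DMSO. It was 4036 with shKdm5b and 4493 with shEV, and 5709 with WT, 4607 with H499A and 3860 with EV. The summed level of the monocyte and macrophage markers (8 of 8 listed for NUP98-NSD1 cells, 7 of 8 for MLL-AF9 cells) was 202604 to 213981 with UNC1999, 152514 to 153752 with JQEZ5 and 85545 to 87131 with DMSO. It was 31459 to 35852 with shKdm5b and 42351 to 43364 with shEV, and 47034 to 49236 with WT, 28981 to 29068 with H499A and 15118 to 15926 with EV. In the inhibitor experiment Lyz2 made up most of this sum, with means of 152067 with UNC1999, 115758 with JQEZ5 and 61844 with DMSO. Single markers went against the sum. The mean of Fcgr1 was lower with JQEZ5 (176) than with DMSO (227), and lower with WT (29.9) than with EV (53.0). That of Mrc1 was higher with shKdm5b (102) than with shEV (73.5). The summed levels moved in all 3 experiments beside the ribosomal protein genes, and the markers' part in the differences below was not tested. In bulk samples of this kind fewer cells of a type and less RNA per cell cannot be told apart.

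Ribosomal protein genes took between 4.20% and 8.37% of a library's counts. In the inhibitor experiment they took 4.73%, 4.63% and 4.68% with UNC1999, 5.23%, 5.02% and 5.11% with JQEZ5, and 5.01%, 5.06% and 4.9996% with DMSO. The UNC1999 libraries lay below all others, at 0.932 times the DMSO mean and 0.914 times the JQEZ5 mean (exact two-sided permutation p = 0.1 for each, the smallest that 3 against 3 libraries allow). JQEZ5 and DMSO overlapped (exact two-sided permutation p = 0.2). In the knockdown experiment the share was 5.04%, 4.29% and 4.20% with shKdm5b, against 4.49%, 4.37% and 4.46% with shEV. Replicate 1 of shKdm5b stood above every shEV library and replicates 2 and 3 below them (exact two-sided permutation p = 1). In MLL-AF9 cells the share was 7.39% and 7.64% with WT, 7.46% and 7.35% with H499A, and 8.25% and 8.37% with EV. Every library with a Kdm5b form lay below both EV libraries, at 0.904 times EV for WT and 0.891 times EV for H499A (exact two-sided permutation p = 0.333 for each, the smallest that 2 against 2 libraries allow). Counted with their copies, the members took 7.77% with UNC1999, 8.49% with JQEZ5 and 8.33% with DMSO, 7.67% with shKdm5b and 7.44% with shEV, and 8.54% with WT, 8.42% with H499A and 9.45% with EV. UNC1999 again had the lowest mean of the inhibitor groups and EV the highest of the Kdm5b groups.

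**Figure D2:**
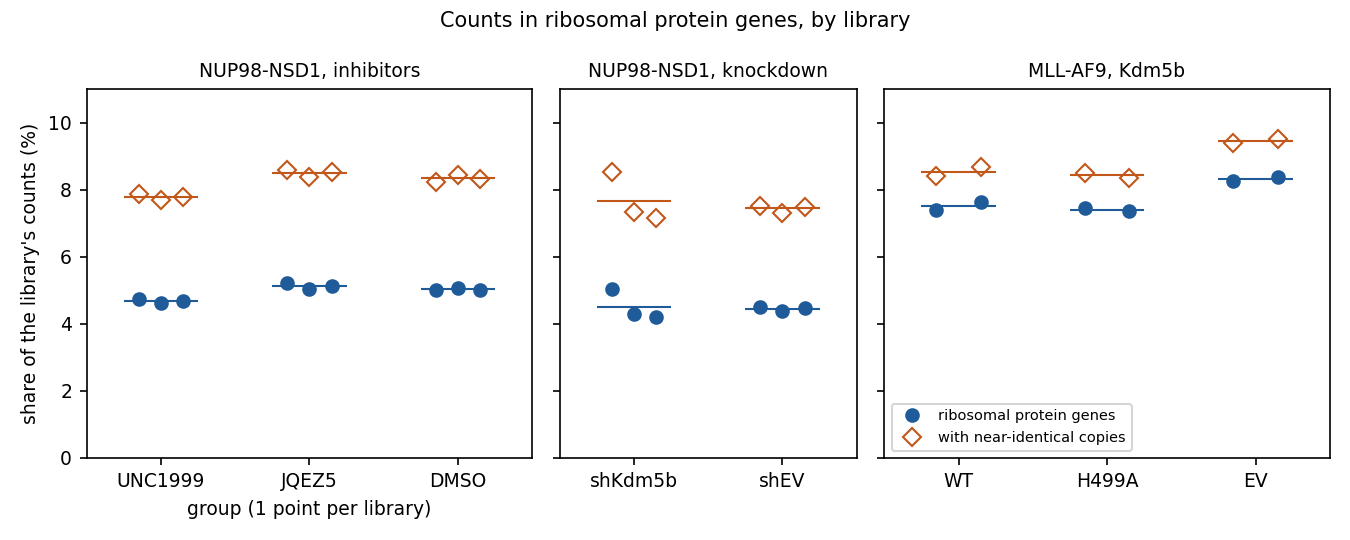
Share of each library's counts (vertical axis, %) in the ribosomal protein genes (filled circles) and in these genes with their near-identical copies (open diamonds), by group, with 1 point per library and lines at group means. WT and H499A lie below EV, UNC1999 lies below JQEZ5 and DMSO, and 1 shKdm5b library stands apart at 5.04%.

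Per kilobase of transcript, Rplp1, an acidic stalk protein, had the highest level of all members in each table, with 45573 normalised counts per kilobase in the inhibitor table, 101464 in the knockdown table and 62688 in the overexpression table. It was followed by Rps4x and Rpl32 in the inhibitor table, by Rplp0 and Rpl32 in the knockdown table and by Rps12 and Rpl23a in the overexpression table. The lowest was Rpl3l, the form of Rpl3 known from striated muscle, with 4.95, 5.81 and 14.1 normalised counts per kilobase in the same tables. The pseudogene Rps3a3 and then Rpl21 came next in both NUP98-NSD1 tables, and the pseudogenes Rpl6l and then Rps3a3 in the overexpression table. After the filter on low values 85, 85 and 84 members were tested in the inhibitor, knockdown and overexpression experiments. Rpl3l was tested in none, and 4 members were never called: Rpl3l and the pseudogenes Rpl6l, Rps12l1 and Rps3a3.

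Expression of Kdm5b in MLL-AF9 cells went with a small drop of nearly all ribosomal protein genes. Against EV, 79 of 84 tested members fell with WT and 0 rose, where 32.4% of all 9458 tested genes fell and 29.8% rose (limma, adjusted p under 0.05). The median log2 difference of the members was -0.16, a median level of 0.888 times EV, while the median over all genes was -0.01. At an unadjusted p under 0.05 limma also gave 79 lower and 0 higher, and voom on the recovered counts called 78 lower and 0 higher. All 43 large-subunit genes fell, with 30 of 32 small-subunit genes, 2 of 3 stalk genes, 3 of 4 tested paralogous forms and 1 of 2 tested pseudogenes. The 5 not called were Rplp1, Rps19, Rps27l, Fau and Rps3a3. Quantile normalisation, which forces all libraries to 1 distribution, gave 47 lower and 3 higher with a median of -0.07. Over all tested genes it gave 3189 lower and 2540 higher.

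With H499A, 77 of 84 members fell and 1 rose against EV, where 26.9% of all genes fell and 22.7% rose. The median log2 difference was -0.16, a median level of 0.889 times EV. All 32 small-subunit genes fell, with 40 of 43 large-subunit genes, 2 of 3 stalk genes, 2 of 4 paralogous forms and 1 of 2 pseudogenes. The member that rose was Rps27l, a form of Rps27 known as a p53 target, and those not called were Rpl8, Rpl19, Rpl38, Rplp1, Rpl7l1 and Rps3a3. Both comparisons use the same 2 EV libraries, so they are not independent of each other.

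**Figure D3:**
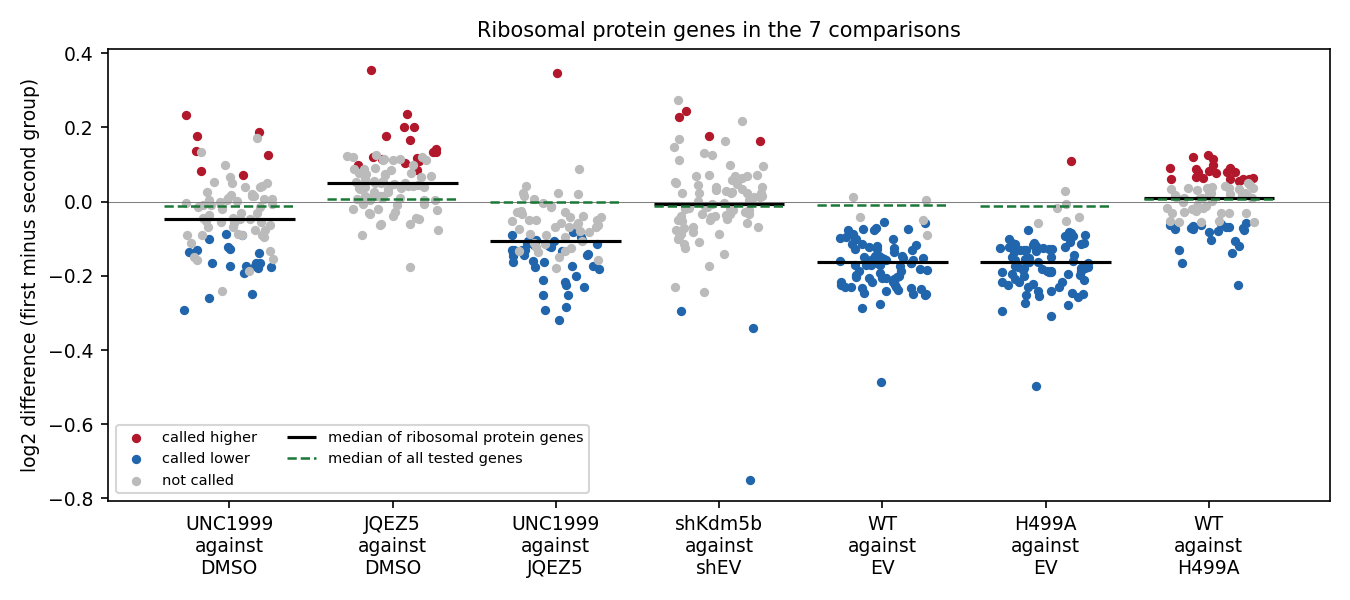
Log2 difference (vertical axis, first minus second group) of each tested ribosomal protein gene in the 7 comparisons, coloured by call at adjusted p under 0.05, with black lines at the members' median and dashed green lines at the median of all tested genes. The members' median is -0.16 for WT and for H499A against EV and between -0.11 and 0.05 elsewhere.

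Among large-subunit genes Rpl18 had 11941 and 12571 normalised counts with WT, 12899 and 12618 with H499A, and 14881 and 15242 with EV. It fell with WT (log2 difference -0.29, limma adjusted p = 1.74e-10) and with H499A (log2 difference -0.23). Rpl3, which helps to shape the peptidyl transferase centre, had 29036 and 29440 with WT, 29057 and 28558 with H499A, and 34639 and 34462 with EV. In both genes every library with a Kdm5b form lay below both EV libraries. Rpl8 had 24771 and 25707 with WT, 29639 and 29518 with H499A, and 30099 and 31246 with EV. It fell with WT (log2 difference -0.28, limma adjusted p = 1.48e-10), while the difference with H499A was -0.051 (95% interval -0.10 to -0.0024, limma adjusted p = 0.0757) and was not called. In their direct comparison Rpl8 was lower with WT than with H499A (log2 difference -0.22, limma adjusted p = 1.09e-08). Rpl5 and Rpl11, which join the ribosome as 1 particle, fell with WT (log2 differences -0.17 and -0.19) and with H499A (-0.18 and -0.12).

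Among small-subunit genes Rps6, the substrate of the S6 kinases, had 29320 and 29670 normalised counts with WT, 28353 and 28394 with H499A, and 34333 and 34746 with EV. Its log2 difference from EV was -0.22 with WT and -0.28 with H499A (limma adjusted p = 1.21e-09 and 2.69e-11). Rps20, a protein of the head of the subunit, had 19111 and 19351 with WT, 18648 and 18115 with H499A, and 22585 and 22753 with EV. Rpsa, also known as a receptor for laminin, had 44771 and 46337 with WT, 45869 and 44723 with H499A, and 51784 and 52040 with EV. In these 3 genes WT and H499A did not overlap with EV. Rps19, mutated in Diamond-Blackfan anaemia in humans, fell with H499A (log2 difference -0.13, limma adjusted p = 6.21e-05), and its difference with WT was -0.048 (95% interval -0.098 to 0.0016). Fau, whose product is made with a ubiquitin-like part, had 14659 and 15341 with WT, 14243 and 13889 with H499A, and 14849 and 14901 with EV. WT overlapped with EV, and H499A lay below EV (log2 difference -0.078, limma adjusted p = 0.00868). The other ubiquitin fusion, Rps27a, fell with both (log2 differences -0.21 with WT and -0.24 with H499A).

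In the stalk Rplp0 had 33075 and 34644 normalised counts with WT, 35620 and 35078 with H499A, and 39391 and 39417 with EV, and fell in both comparisons (log2 differences -0.22 and -0.15). Rplp2, which pairs with Rplp1, fell as well (log2 differences -0.095 with WT and -0.093 with H499A). Rplp1 had 30267 and 31317 with WT, 31704 and 30947 with H499A, and 31493 and 31958 with EV. It was called in neither comparison, with log2 differences of -0.042 with WT (95% interval -0.090 to 0.0048), which turned to 0.10 under quantile normalisation, and -0.018 with H499A (-0.065 to 0.029).

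The paralogous forms did not move alike. Rpl22l1, which can take the place of Rpl22, had the largest difference of all tested members in both comparisons with EV, with 1800 and 1833 normalised counts with WT, 1800 and 1801 with H499A, and 2732 and 2777 with EV. Its level was 0.659 times EV with WT and 0.654 times EV with H499A (log2 differences -0.49 and -0.50, limma adjusted p = 3.85e-14 and 4.40e-14). Rpl22 itself had 10137 and 10168 with WT, 10137 and 9978 with H499A, and 10672 and 10972 with EV. Its log2 differences were -0.087 with WT, which turned to 0.0051 under quantile normalisation, and -0.10 with H499A. Rps27l had 3051 and 3129 with WT, 3374 and 3352 with H499A, and 3090 and 3072 with EV. It rose with H499A by 0.11 on the log2 scale (limma adjusted p = 0.00112) and overlapped with EV with WT. Its main form Rps27 fell in both, with 10405 and 10416 with WT, 9877 and 10050 with H499A, and 11604 and 11716 with EV. Rpl7l1 fell with WT (-0.10) and stood at 0.029 with H499A, while Rpl7 fell in both (-0.23 and -0.18). Rpl36al fell in both (-0.12 and -0.090), as did Rpl36a (-0.13 and -0.19).

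**Figure D4:**
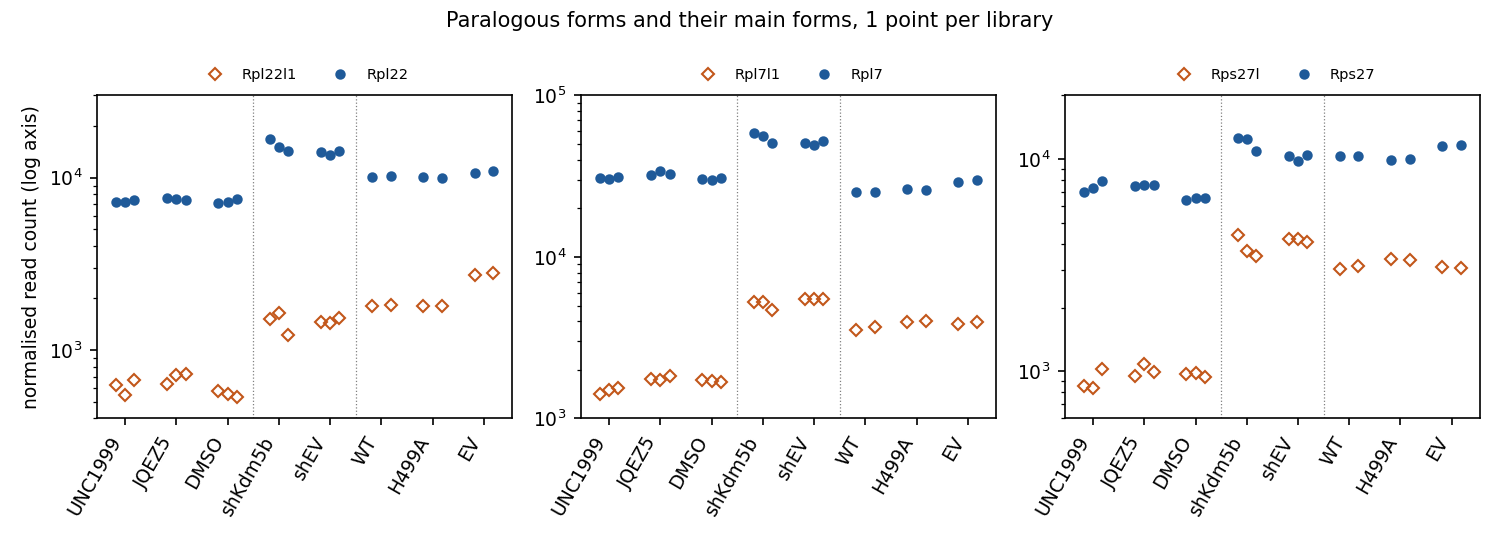
Normalised read counts (log axis) of 3 paralogous forms (open diamonds) and their main forms (filled circles), 1 point per library, with dotted lines between the 3 tables, which were normalised separately. Rpl22l1 lies at 1800 to 1833 in the WT and H499A libraries and at 2732 and 2777 in the EV libraries.

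Set directly against H499A, WT had 21 members higher and 21 lower of 84 tested. These counts lie near the background, 28.2% of all genes higher and 26.3% lower, and the members' median log2 difference was 0.01. By role, 13 small-subunit genes were higher with WT and 3 lower, while 8 large-subunit genes were higher and 15 lower, with 1 stalk gene and 2 paralogous forms lower. Among the highest with WT were Rpl28 (log2 difference 0.12), Rps18 (0.11) and Rps29 (0.099). Lowest with WT were Rpl8 (-0.22), Rps2 (-0.17), Rpl7a (-0.14) and Rpl7l1 (-0.13). Rps2, which lies at the channel through which messenger RNA enters, had 11902 and 12127 normalised counts with WT, 13603 and 13508 with H499A, and 14324 and 14478 with EV, so that H499A lay between WT and EV. The split changed with the scaling, to 40 higher and 9 lower under quantile normalisation, 24 higher and 11 lower scaled to library totals, and 13 higher and 26 lower under median centring. Over all 9458 tested genes the same scalings gave 2500 higher and 2484 lower, 2881 higher and 2229 lower, and 2325 higher and 2790 lower. The members' split also changed with single libraries, to 4 higher and 13 lower without H499A replicate 2, and to 10 lower without H499A replicate 1.

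Fewer members were called with each PRC2 inhibitor against DMSO than with either Kdm5b form against EV. With UNC1999, 20 of 85 tested members fell and 7 rose against DMSO, where 24.0% of all 10694 tested genes fell and 23.9% rose (limma, adjusted p under 0.05). The share of members that fell was near that background. The members' median log2 difference was -0.05, a median level of 0.964 times DMSO, against a median of -0.01 over all genes. All 3 stalk genes fell, with 10 of 43 large-subunit genes, 5 of 32 small-subunit genes and 2 of 4 tested paralogous forms. Quantile normalisation gave 32 members lower and 2 higher, while of all tested genes it gave 2953 lower and 2274 higher. Scaling to library totals gave 38 members lower and 3 higher, and moved all tested genes the same way, to 3441 lower and 1974 higher, against 2566 lower and 2552 higher on the deposited scale.

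Rps18, which takes part in a bridge between the subunits, had 5883, 5193 and 5097 normalised counts with UNC1999, against 7200, 6322 and 6439 with DMSO (log2 difference -0.29, limma adjusted p = 9.28e-04). Rplp1 had 22006, 20335 and 20983 with UNC1999, against 23371, 24190 and 24221 with DMSO (log2 difference -0.18, limma adjusted p = 8.01e-04). Rpl3 had 8407, 7858 and 7574 with UNC1999, against 8670, 9380 and 8990 with DMSO. In each of these 3 genes all UNC1999 libraries lay below all DMSO libraries. So did Rpl27a (-0.26), Rpl27 (-0.25), Rpl7l1 (-0.17), Rpl36al (-0.17), Rpsa (-0.17), Rplp2 (-0.17) and Rplp0 (-0.13), all of which fell. Rpl27 is counted at a low level here, with 195, 213 and 167 with UNC1999, against 264, 285 and 229 with DMSO, and holds 2.10% to 3.33% of its family's counts. Among the members that rose with UNC1999 were Rpl17, Rps4x, Rps27, Rpl23, Rps3a2 and Rps19. Rps4x, the X-linked form of a small-subunit protein, had 40492, 40690 and 41606 with UNC1999, against 36112, 35381 and 36153 with DMSO (log2 difference 0.19, limma adjusted p = 2.12e-05). Rps27 had 6985, 7329 and 7871 with UNC1999, against 6424, 6546 and 6570 with DMSO. For Rpl17, at 0.23, the call was lost when its copies were counted with it (-0.0084, limma adjusted p = 0.836).

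With JQEZ5, 16 of 85 members rose and 0 fell against the same DMSO libraries, where 13.1% of all genes rose and 10.5% fell. At an unadjusted p under 0.05 limma gave 26 higher and 0 lower, and voom called 16 higher and 0 lower. The median log2 difference was 0.05, a median level of 1.04 times DMSO. Of 43 large-subunit genes 6 rose, of 32 small-subunit genes 8 rose, and the others were Rpl22l1 and Rps3a2. Quantile normalisation gave 9 higher and 3 lower, where of all 10694 tested genes it gave 1185 higher and 1322 lower. Without JQEZ5 replicate 1, the deepest library of the table, 4 members were called lower, where 975 of all tested genes were. Counted with copies, 29 members rose and 0 fell.

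Rpl22l1 had 636, 713 and 722 normalised counts with JQEZ5, against 580, 551 and 535 with DMSO (log2 difference 0.24, limma adjusted p = 0.00598). Rps4x had 39314, 41390 and 40271 with JQEZ5, against 36112, 35381 and 36153 with DMSO (log2 difference 0.17). Rps27 had 7492, 7538 and 7541 with JQEZ5, against 6424, 6546 and 6570 with DMSO (log2 difference 0.20). In all 3 genes each JQEZ5 library lay above each DMSO library. Rpl7 (0.12), Rpl19 (0.10), Rpl23 (0.18) and Rps19 (0.084) also rose. The largest difference was that of Rpl17, at 0.36, which came to 0.10 with its copies counted in (limma adjusted p = 0.0185) and was still called.

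With dose and exposure time matched, the inhibitors were set against each other directly, as 1 pair. Against JQEZ5, 39 of 85 members were lower with UNC1999 and 1 was higher, where 17.7% of all genes were lower and 18.7% higher. The median log2 difference was -0.11, a median level of 0.924 times JQEZ5, against 0.00 over all genes. All 3 stalk genes were lower, with 18 of 43 large-subunit genes, 16 of 32 small-subunit genes, Rpl7l1 and Rpl36al.

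Rps27a had 4273, 4373 and 4169 normalised counts with UNC1999, against 5075, 4807 and 5053 with JQEZ5 (log2 difference -0.21, limma adjusted p = 7.24e-04). Rplp0 had 39037, 37101 and 36492 with UNC1999, against 43839, 40949 and 42242 with JQEZ5 (log2 difference -0.17, limma adjusted p = 4.69e-04). In both genes the inhibitors did not overlap. Rps6 had 7664, 7095 and 6745 with UNC1999, against 9665, 9117 and 7635 with JQEZ5 (log2 difference -0.28), with 1 JQEZ5 library inside the UNC1999 range. Rps18 (-0.32), Rpl12 (-0.29), Rpl27 (-0.23), Rpl7l1 (-0.22) and Rpl36al (-0.22) were lower without overlap. Over the inhibitor libraries Rpl12 held 1.97% to 2.77% of its family's counts and Rpl27 2.10% to 3.33%. Their differences are thus those of a small part of the family's reads. Rps19 and Rps4x were not called between the inhibitors, with log2 differences of -0.012 (95% interval -0.070 to 0.045) and 0.022 (-0.034 to 0.077). The 1 higher member, Rps12, had 4194, 4378 and 4967 with UNC1999, against 4036, 2684 and 3909 with JQEZ5 (log2 difference 0.35, limma adjusted p = 0.0309). With its copies outside the list counted in, the difference was -0.080 (limma adjusted p = 0.342). The call was also lost under quantile normalisation, without JQEZ5 replicate 2 and without UNC1999 replicate 2 or 3.

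Knockdown of Kdm5b in NUP98-NSD1 cells gave few calls, and they turned on single libraries. With shKdm5b, 4 of 85 members rose and 3 fell against shEV, where 15.0% of all 10810 tested genes rose and 17.4% fell, and the members' median log2 difference was -0.0062, or 0.0070 under median centring. Rps27, Rps23, Rpl23 and Rpl5 rose, and Rps12, Rpl24 and Rpl27 fell. Rps27 had 12584, 12514 and 10975 normalised counts with shKdm5b, against 10395, 9795 and 10423 with shEV (log2 difference 0.23, limma adjusted p = 0.0193). Rps23, a protein of the decoding site, had 8287, 7163 and 6539 with shKdm5b, against 6096, 6101 and 6131 with shEV (log2 difference 0.24). Rps12 had 4158, 1730 and 2498 with shKdm5b, against 4645, 4933 and 4422 with shEV (log2 difference -0.75, limma adjusted p = 0.0320). In these 3 genes the groups did not overlap. Counted with copies outside the list, Rps12 stood at 0.04 and Rpl5 at 0.02, and no member was called lower.

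The median of the members in shKdm5b replicate 1 was 0.19 log2 units above the shEV mean, with 7 of 85 members below it. In replicates 2 and 3 the median was -0.10 each, with 59 and 61 of 85 members below. Without replicate 1, 37 members were called lower and 5 higher, where 27.7% of all genes were lower and 23.7% higher, and the members' median was -0.09. Among those lower were Rpl8 (-0.27), Rpl11 (-0.23), Rplp0 (-0.19), Rps19 (-0.16), Rpsa (-0.12) and Fau (-0.31), while Rpl5 (0.14), Rps27 (0.19), Rpl23 (0.16), Rps23 (0.16) and Rpl10 (0.098) were higher. In this table Fau held 6.19% to 8.16% of its family's counts and Rpl5 3.07% to 4.01%. The copies of Fau stood at 17412 and 18424 normalised counts in replicates 2 and 3, against 17932 to 18444 with shEV. Those of Rpl5 stood at 42689 and 36580, against 39847 to 42188 with shEV. Without replicate 3 of shKdm5b 10 were higher and 0 lower, where of all 10810 tested genes 1355 were higher and 1600 lower. Without replicate 2 there were 2 higher and 0 lower, where of all tested genes 1372 were higher and 1604 lower. Without 1 shEV library at most 1 member was called. Quantile normalisation of all libraries gave 9 higher and 1 lower, where of all tested genes it gave 1748 higher and 1696 lower.

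**Figure D5:**
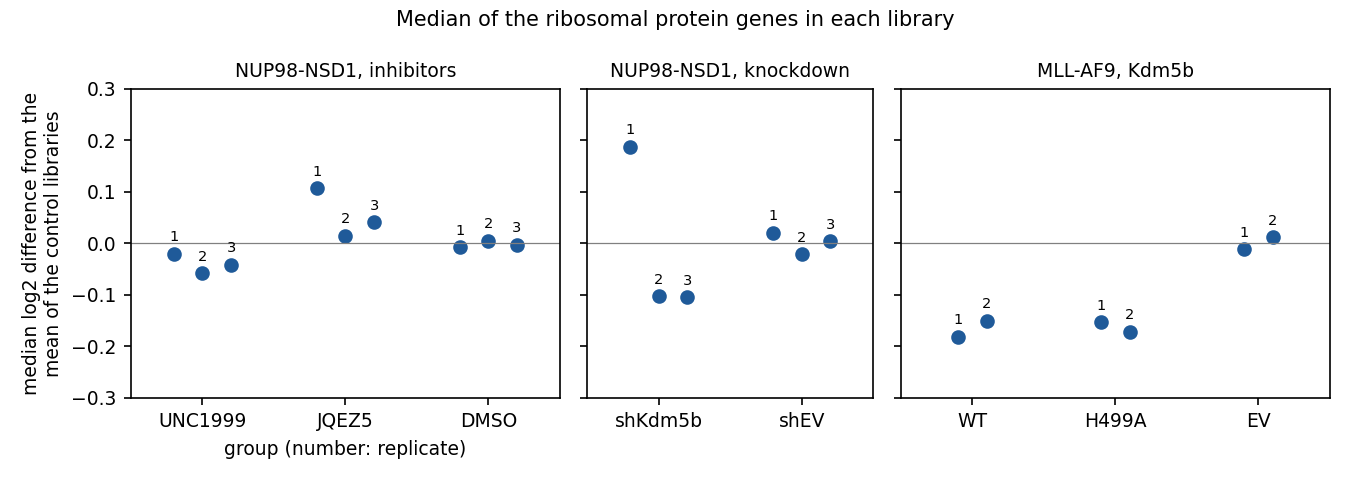
Median over the tested ribosomal protein genes of the log2 difference from the mean of the control libraries (vertical axis), 1 point per library with its replicate number, by group. Replicate 1 of shKdm5b lies at 0.19 and replicates 2 and 3 at -0.10, while the WT and H499A libraries lie between -0.18 and -0.15.

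Members with and without a pyrimidine run at any of their RefSeq starts were set side by side. Whether these annotated starts are the ones used in these cells was not tested, so the split need not follow the TOP motif. With WT against EV the median log2 difference was -0.16 for the 33 tested members with a run and -0.16 for the 29 without, with 30 and 29 called lower. With UNC1999 against JQEZ5 the medians were -0.09 and -0.12, with 14 called lower in each set. With WT against H499A, 11 of the 33 members with a run were higher and 6 lower. Of the 29 without one, 5 were higher and 9 lower. In that comparison 28.2% of all genes were higher and 26.3% lower, and the members' split changed with the scaling, as given above. Members were also split by the share of their family's counts on the gene. With UNC1999 against JQEZ5, 17 of 41 members with under 50% were lower (median -0.12), and 22 of 41 with more (median -0.10). With JQEZ5 against DMSO, 3 of 41 members with under 50% rose, and 12 of 41 with more. With shKdm5b, 3 of 40 members with under 50% rose and 3 fell, and of the 42 with more 1 rose and 0 fell. With WT against H499A the 3 members with under 50% had a median of -0.018 and the 79 with more a median of 0.011. Over all genes 32.4% fell with WT against EV, 17.7% were lower with UNC1999 than with JQEZ5, and 13.1% rose with JQEZ5 against DMSO. With shKdm5b 15.0% of all genes rose and 17.4% fell. The differences between the sets were not tested.

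Other genes of ribosome production and translation were counted in the same fits. Of 36 ribosome biogenesis factors 23 fell with WT and 0 rose against EV (median -0.15), and 13 fell and 4 rose with H499A (median -0.03). Of all genes 32.4% fell and 29.8% rose with WT, and 26.9% fell and 22.7% rose with H499A, so that the count that fell with H499A lay nearer the background. Ncl, the gene of nucleolin, averaged 35066 normalised counts with WT and 47581 with EV (log2 difference -0.43, limma adjusted p = 3.48e-15). It was also lower with WT than with H499A (log2 difference -0.36). Bop1, a factor of large-subunit assembly, rose with H499A (log2 difference 0.20). Of these 36 factors 30 fell with UNC1999 and 0 rose against DMSO (median -0.20), 5 rose and 0 fell with JQEZ5 (median 0.06), and 31 were lower and 0 higher with UNC1999 than with JQEZ5 (median -0.25). With shKdm5b 23 fell and 0 rose (median -0.18). Over all genes 24.0% fell with UNC1999, 13.1% rose with JQEZ5, 17.7% were lower with UNC1999 than with JQEZ5, and 17.4% fell with shKdm5b.

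Of 25 tested translation factors and other TOP transcripts, 18 fell and 4 rose with WT, and 19 fell and 3 rose with H499A. Eif4b, a helper of the initiation helicase, averaged 16462 normalised counts with WT, 16383 with H499A and 20376 with EV. Npm1, the gene of nucleophosmin, averaged 34921 with WT and 49852 with EV (log2 difference -0.51). With UNC1999 12 of the 25 fell and 2 rose, with JQEZ5 2 fell and 6 rose, and with shKdm5b 5 fell and 2 rose. The count that fell with shKdm5b lay near the 17.4% of all genes that did. Of 20 tested regulators of ribosomal protein synthesis, 8 fell and 2 rose with WT, 7 fell and 0 rose with H499A, 4 fell and 4 rose with UNC1999, 0 fell and 5 rose with JQEZ5, and 2 fell and 1 rose with shKdm5b. Of all genes 32.4% fell and 29.8% rose with WT, and 26.9% fell and 22.7% rose with H499A. With UNC1999 24.0% fell and 23.9% rose, with JQEZ5 10.5% fell and 13.1% rose, and with shKdm5b 17.4% fell and 15.0% rose. The regulators' counts with UNC1999 and shKdm5b lay below these shares in both directions, and those that fell with WT and H499A lay near them. Among the regulators Myc fell with WT (-0.15) and H499A (-0.23) and rose with JQEZ5 (0.21). Eif4ebp2, a repressor of cap-dependent initiation, fell with shKdm5b (-0.98, limma adjusted p = 1.21e-05).

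The ribosomal proteins of the mitochondria, which are encoded by other genes, were counted as a further set. Against EV, 32 of 77 fell and 3 rose with WT (median -0.05), and 8 fell and 10 rose with H499A (median 0.01). With UNC1999 39 of 76 fell and 2 rose (median -0.13), with JQEZ5 1 fell and 4 rose (median 0.01), and with shKdm5b 24 fell and 1 rose (median -0.10). The counts with H499A and with JQEZ5 lay below the background in both directions, which was 26.9% lower and 22.7% higher with H499A and 10.5% lower and 13.1% higher with JQEZ5. Of all genes 32.4% fell with WT, 24.0% with UNC1999 and 17.4% with shKdm5b. The set's share of counts was 0.484%, 0.439% and 0.426% with shKdm5b, against 0.481%, 0.476% and 0.481% with shEV (exact two-sided permutation p = 0.4). Replicate 1 of shKdm5b thus stood above every shEV library here as well.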

How the data were processed

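Per the labels, total RNA of 21 libraries in 8 groups was sequenced after library preparation with 1 of 2 kits, and which library used which is not stated. The submitters' processing notes name STAR 2.4.2, Salmon 0.1.19, DESeq2 1.38.2 and the builds GRCm38.p4 and mm10. The deposited values are on a log2 scale, 1 table per experiment, and have the form that the authors would get from the variance-stabilising transformation of DESeq2. Inverting it gave normalised read counts and, with the size factors implied, counts that were whole for 100% of values within a tolerance of 0.05. These counts gave the shares, the voom alternative and the library depths.

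Tests used limma 3.58.1 in R 4.3.3 on the log2 values, with all groups of a table in 1 fit, a mean trend and Benjamini-Hochberg adjustment over all genes tested, called at an adjusted p under 0.05. A gene was tested when it lay at least 1 log2 unit above its table's floor in a number of libraries no smaller than the smallest group. On this scale differences of low genes are understated, so ratios of normalised counts are given beside some of them. Shares were compared with exact two-sided permutation tests, and the script was tested on simulated data. Copies were found with BLAST 2.17.0. Python 3.11.15 and pandas 2.3.3 were used.

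The members and the other gene lists were chosen with earlier results of these data known. Named are members with the largest called differences without overlap (up to 6 each way per comparison), paralogous and main forms, stalk genes, Rps27a, Fau, Rpl5, Rpl11, Rps6, Rps19 and Rpsa, and the highest and lowest members. Rpl19, Rpl26, Rpl29, Rpl35a, Rpl38 and the genes given without shKdm5b replicate 1 were picked after their values were seen. A few members that the rule would name are not reported here one by one, and they remain in every fit and count.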

Additional observations from a re-analysis of the deposited data

How the results depend on the processing

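The members' median difference with WT and with H499A against EV kept its direction under every scaling, filter and variance setting run, and when each library was left out. Quantile normalisation gave 2 higher and 32 lower for UNC1999 against DMSO (median -0.095), 9 and 3 for JQEZ5 against DMSO, 0 higher for UNC1999 against JQEZ5, 9 and 1 for shKdm5b against shEV, 3 and 47 for WT against EV (median -0.067), a median of -0.11 for H499A against EV, and 40 and 9 for WT against H499A (median 0.053). Scaling to library totals gave 3 higher and 38 lower for UNC1999 against DMSO (median -0.11) and 11 lower for WT against H499A. Median centring gave 13 higher for WT against H499A. Without the mean trend WT against H499A had 10 higher and 9 lower, and UNC1999 against JQEZ5 had 0 higher, as it had with robust variances. Without the filter H499A against EV had 2 higher. Counting copies, an alternative chosen after seeing the data, gave 29 higher for JQEZ5 against DMSO, 0 higher for UNC1999 against JQEZ5 and 0 lower for shKdm5b against shEV. The cause of these changes was not tested.

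Of the shares of counts, leaving out the 10 most counted other genes gave 5.04% for UNC1999, 5.49% for JQEZ5, 5.36% for DMSO, 4.76% for shKdm5b, 4.66% for shEV, 7.94% for WT, 7.77% for H499A and 8.75% for EV. Counting copies gave 7.77%, 8.49% and 8.33% for UNC1999, JQEZ5 and DMSO, 7.67% and 7.44% for shKdm5b and shEV, and 8.54%, 8.42% and 9.45% for WT, H499A and EV.

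Among 5830 values of 48 named genes under the alternatives, 5410 kept their call or stayed uncalled. Of the others, 277 lost the call, 125 gained one, and 18, called in at least 1 fit, turned round. Values uncalled in both fits were counted with the 5410 even where their direction changed. Under quantile normalisation differences turned round or came to zero, with 0.015 for Rpl11, 0.087 for Rpl7, 0.00 for Rplp0 and 0.073 for Rplp1 in WT against H499A. For WT against EV they were 0.0097 for Rpl17, 0.0051 for Rpl22, 0.10 for Rplp1, 0.00 for Rps12 and 0.012 for Rps18, and for JQEZ5 against DMSO -0.087 for Rpl32 and -0.088 for Rplp0. Counted with copies outside the list, those that turned round were -0.0084 for Rpl17, 0.031 for Rpl21 and -0.16 for Rps12 in UNC1999 against DMSO, 0.079 for Rpl27 and 0.071 for Rpl5 in JQEZ5 against DMSO, -0.080 for Rps12 in UNC1999 against JQEZ5, and 0.084 for Rpl27 and 0.036 for Rps12 in shKdm5b against shEV.

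Leaving out 1 library at a time gave 5 to 7 higher and 17 to 27 lower for UNC1999 against DMSO, 14 to 18 higher and 0 to 4 lower for JQEZ5 against DMSO, and 0 to 1 higher and 27 to 44 lower for UNC1999 against JQEZ5. It gave 0 to 10 higher and 0 to 37 lower for shKdm5b against shEV, where Rpl13a came to -0.11 without shKdm5b replicate 1. It gave 69 to 81 lower for WT against EV, 72 to 79 lower for H499A against EV, and 4 to 31 higher and 10 to 28 lower for WT against H499A, with 10 lower without H499A replicate 1. Where an arm keeps 1 library, that library is assumed to vary like the others.

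Whether the replicate numbers pair the samples is not known. The correlations of same-numbered libraries ran from -0.15 to 0.22, and with 2 or 3 libraries a group they cannot decide it. A fit with the replicate number as a block gave 6 higher and 23 lower for UNC1999 against DMSO, 19 and 0 for JQEZ5 against DMSO, 1 and 42 for UNC1999 against JQEZ5, 6 and 4 for shKdm5b against shEV, 0 and 79 for WT against EV, 1 and 77 for H499A against EV, and 20 and 21 for WT against H499A. With 2 or 3 libraries a group, permutation tests of the shares cannot go below 0.333 or 0.1, and the splitting of reads between genes and copies limits values of single genes in the NUP98-NSD1 tables.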
